A study of Mus musculus with 37 samples.

Results

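The genes described here encode the fatty acid binding proteins of the mouse brain, Fabp7, Fabp5 and Fabp3. They are 3 of the 56980 genes in the deposited count table and were selected by symbol, through their Ensembl identifiers (ENSMUSG00000019874.12, ENSMUSG00000027533.11 and ENSMUSG00000028773.9). The set was put together because Fabp7 had been seen to be lower with antibiotics and with morphine in these same libraries. Its values in those comparisons are therefore a description with no test, while its age comparisons and every comparison of Fabp5 and Fabp3 were tested. All 3 genes passed the filter on low counts, in a table where 19332 genes did.

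The libraries were made from polyadenylated RNA of male wild-type C57BL/6J mice. Brain is the labelled tissue, with all cell types, and the title of the series places it in the medial prefrontal cortex. Treatment started at postnatal day 25 (adolescent) or day 55 (adult). The mice took water or oral antibiotics and received saline or morphine, 15 mg/kg under the skin, for 5 days, which makes 8 groups. Adolescents numbered 5 libraries on water with saline, 5 on water with morphine, 3 on antibiotics with saline and 5 on antibiotics with morphine, and adults 3, 5, 5 and 4 in the same order. These 35 libraries held 10630727 to 31560468 counts each, and 2 further libraries with 25165 and 58764 counts were left out. The labels do not say that each library is a separate animal, so p-values measure the spread between libraries.

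Fatty acid binding proteins are small cytosolic carriers that hold long-chain fatty acids, which hardly dissolve in water, and hand them to enzymes, membranes and nuclear receptors. FABP7, also called brain lipid binding protein, is the form of radial glia, astrocytes and oligodendrocyte precursors and prefers docosahexaenoic acid and other polyunsaturated fatty acids. FABP5 occurs in neurons, glia and endothelium and carries retinoic acid, anandamide and fatty acids, among others to the receptor PPARδ. FABP3, the heart form, is the form of mature neurons and binds arachidonic acid. Transcription of Fabp7 is known to respond to Notch signalling through RBPJ, to PAX6, and to the clock repressor REV-ERBα, the product of Nr1d1.

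In GENCODE M21 on the GRCm38 build (mm10), Fabp7 lies at chr10:57784881-57788450, Fabp5 at chr3:10012548-10016607 and Fabp3 at chr4:130308595-130315463, all on the plus strand. Nearly all identifiers in the table carry a later version than in that annotation, so these positions come from the annotation and not from the counting. Fabp5 stands in a cluster of 5 family genes that spans 288.6 kb with Pmp2, Fabp9, Fabp4 and Fabp12, while Fabp7 is the only one of 15 listed family genes on its chromosome and Fabp3 shares its chromosome with Rbp7 alone. Fabp3 overlaps Zcchc17 at its 3′ end and Gm10570 at its 5′ end, both on the minus strand. Whether counting used the strand is not known here, nor is how reads from these overlaps were assigned.

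The upstream sequence of Fabp7 is shown beside that of Fabp3, whose treatment differences did not pass the test, so that the 2 promoters can be compared. Both are read from RefSeq's promoter table (GRCm38.p6), plus strand, 5′ to 3′, and stop before the first base of the gene itself in GENCODE M21. The Fabp3 stretch lies within Gm10570 (chr4:130308162-130308674), which is annotated on the minus strand. Capitals mark matches to the letters TGGGAA (the core bound by RBPJ), AGGTCA (the half-site of nuclear receptors, REV-ERBα and PPARs among them) and CACGTG (the E-box bound by CLOCK and BMAL1), on either strand. The first stretch is chr10:57784673-57784880 and the second chr4:130308488-130308594.
Fabp7: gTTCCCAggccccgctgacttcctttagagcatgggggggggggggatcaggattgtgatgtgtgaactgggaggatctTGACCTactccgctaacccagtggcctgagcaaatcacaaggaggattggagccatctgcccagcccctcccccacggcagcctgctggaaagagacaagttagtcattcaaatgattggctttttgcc
Fabp3: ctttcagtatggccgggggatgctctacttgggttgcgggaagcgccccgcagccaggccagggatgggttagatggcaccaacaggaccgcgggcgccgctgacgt
Over the 250 bases before the RefSeq start, Fabp7 held 1 match to TGGGAA, at position -249, and 1 to AGGTCA, at position -171, both on the minus strand and not overlapping, and 0 to CACGTG. Fabp3 held 0 matches to each of these. Of the 32851 promoters of the same length in the table, 21.6% held TGGGAA, 14% AGGTCA and 6.0% CACGTG, so such matches are common and describe the letters only. The GC content of these 250 bases was 54.8% for Fabp7 and 64.8% for Fabp3, against a median of 52.4%.

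One library stood apart and bears on all results below that use it. In adolescent water saline replicate 1 the summed level of 11 mature oligodendrocyte markers was 20494 CPM (counts relative to the TMM-scaled library size), while its group's remaining libraries had 1261 to 3011 CPM, and that of 11 striatal neuron markers was 1811 CPM against 211 to 258 CPM. Its 11 cortical excitatory neuron markers summed to 5862 CPM, the lowest of the 35 libraries, which otherwise reached up to 9966 CPM. Another 7 libraries, all adolescent, held 520 to 1148 counts of 6 pancreatic islet genes, with the highest of all other libraries at 12 counts. The part of these markers in the results was not tested beyond the values given without the library and with a term for islet reads.

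Fabp7 was the least abundant member. Per kilobase of the longest coding transcript, its level ran from 4.70 to 27.6 CPM with a median of 12.8, below Fabp5 with 51.0 to 85.7 and a median of 62.1, and Fabp3 with 71.9 to 116 and a median of 95.7. By mean CPM, Fabp7 ranked 10117th of the 19332 genes tested, Fabp5 3644th and Fabp3 2863rd. The counts behind these levels were 59 to 678 per library for Fabp7, 629 to 2460 for Fabp5 and 857 to 2456 for Fabp3. Over the 35 libraries Fabp7 ran from 4.14 to 24.3 CPM, Fabp5 from 50.4 to 84.6 CPM and Fabp3 from 59.2 to 95.2 CPM, so Fabp7 had the widest span for its level. In bulk tissue fewer cells of a type and less RNA per cell cannot be told apart, which applies to every level given here.

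**Figure D1:**
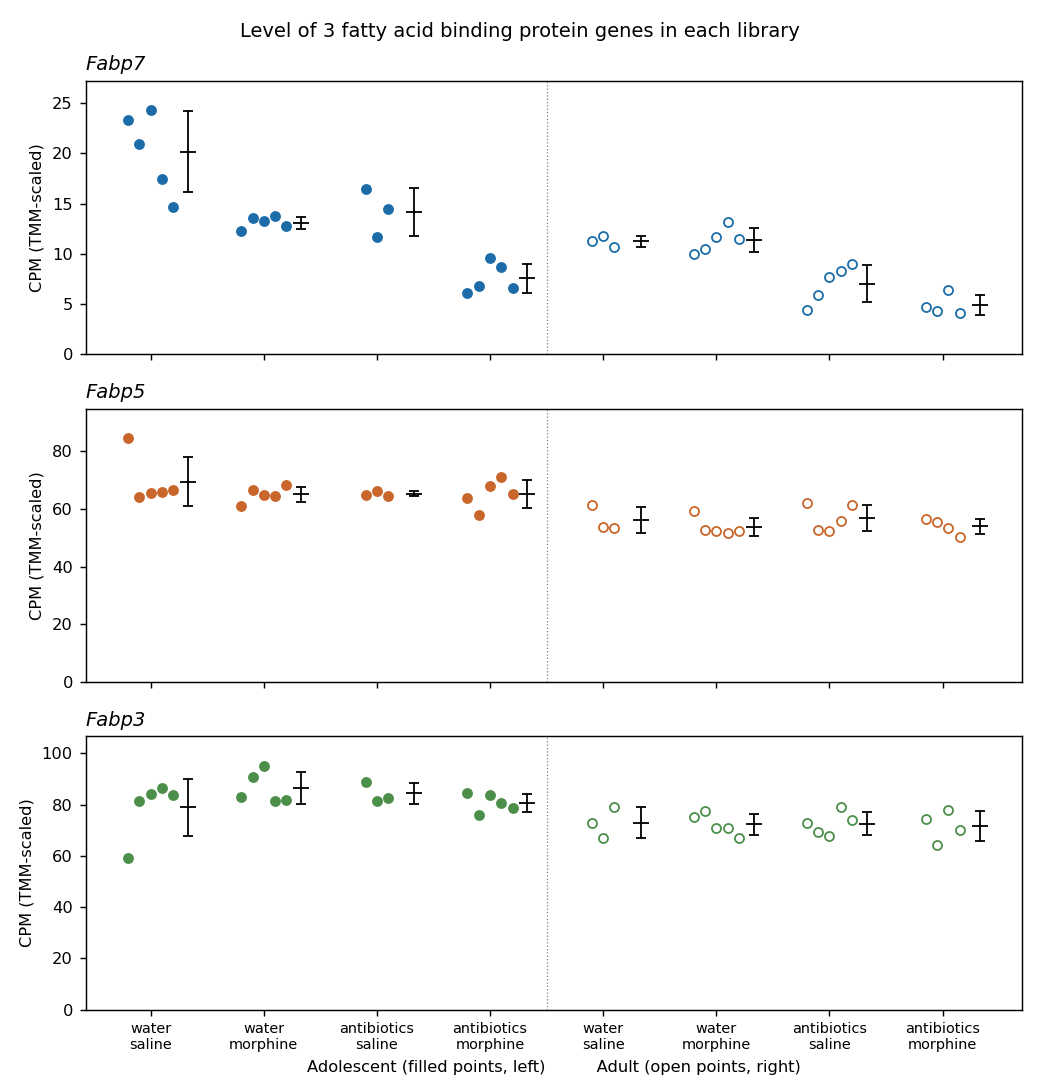
Level of Fabp7, Fabp5 and Fabp3 in CPM (TMM-scaled, y axes from 0) in each of 35 libraries, by group, with adolescents as filled and adults as open points, and the group mean ± SD as black bars beside the points. Fabp7 is lowest with antibiotics and morphine in each age, at 7.55 CPM against 20.2 CPM on water with saline in adolescents and 4.89 against 11.2 CPM in adults, and the adult groups on water overlap, while Fabp5 and Fabp3 differ mainly between the ages.

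In adolescents on water with saline, Fabp7 stood at 23.3, 21.0, 24.3, 17.5 and 14.7 CPM in replicates 1 to 5 (mean 20.2 ± 4.02, SD, n = 5). With morphine on water the values were 12.3, 13.5, 13.2, 13.8 and 12.7 CPM (13.1 ± 0.602, n = 5), and every one lay under the lowest of the saline group. With antibiotics and saline they were 16.4, 11.6 and 14.4 CPM (14.2 ± 2.40, n = 3), which overlapped the water group at its lower end.
With both antibiotics and morphine, adolescents had 6.13, 6.78, 9.54, 8.70 and 6.61 CPM of Fabp7 (7.55 ± 1.48, n = 5). All 5 libraries lay under every library of the other 3 adolescent groups.
In adults on water, Fabp7 was 11.2, 11.8 and 10.7 CPM with saline (11.2 ± 0.564, n = 3) and 10.03, 10.5, 11.7, 13.1 and 11.5 CPM with morphine (11.4 ± 1.20, n = 5), so the 2 groups overlapped. On antibiotics the adults had 4.42, 5.89, 7.67, 8.26 and 8.97 CPM with saline (7.04 ± 1.86, n = 5) and 4.68, 4.35, 6.40 and 4.14 CPM with morphine (4.89 ± 1.03, n = 4). Both antibiotic groups lay wholly under both water groups, and they overlapped each other.

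Ordered by mean, the Fabp7 groups ran from adolescent water saline, adolescent antibiotics saline, adolescent water morphine, adult water morphine, adult water saline, adolescent antibiotics morphine and adult antibiotics saline down to adult antibiotics morphine. The ranges of neighbours in this order overlapped except for 1 step, that between adult water saline and adolescent antibiotics morphine (3.68 CPM apart). The 3 lowest groups, adolescents with both treatments and both adult groups on antibiotics, held no library above 9.54 CPM.

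As a description of the contrast the gene was picked on, the fitted Fabp7 log2 difference for antibiotics against water was -0.51 (SE 0.164) in adolescents with saline, -0.81 (SE 0.149) in adolescents with morphine, -0.67 (SE 0.175) in adults with saline and -1.22 (SE 0.173) in adults with morphine. Across all genes tested, 0.0103%, 1.11%, 0.031% and 1.92% passed an adjusted p of 0.05 in these 4 comparisons (edgeR quasi-likelihood test, Benjamini-Hochberg), and 10.2% did in their average, where Fabp7 was at 0.574 times its water level. For morphine against saline the Fabp7 log2 difference was -0.62 (SE 0.142) in adolescents on water, -0.92 (SE 0.166) in adolescents on antibiotics, 0.015 (SE 0.173) in adults on water, with either sign when single libraries were left out (-0.040 without morphine replicate 4, -0.022 without saline replicate 5, 0.058 without morphine replicate 1), and -0.53 (SE 0.177) in adults on antibiotics. The shares of all genes passing there were 0.331%, 0.0466%, 0% and 0%, and 0.316% in the average, where Fabp7 was at 0.700 times its saline level. The 2 shares of 0 in edgeR stood beside 559 and 1524 genes with an unadjusted p under 0.05. There DESeq2 called 0 and 14 genes and limma-voom 1 and 1. With 1 library left out at a time, the Fabp7 difference for antibiotics in adolescents with saline ran from -0.62 to -0.38. That for morphine in adolescents on water ran from -0.72 to -0.55.

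Set directly against water with saline, antibiotics with morphine left Fabp7 at 0.371 times its level in adolescents and 0.435 times in adults. Again this is a description. With 1 library left out at a time, the log2 difference ran from -1.53 to -1.36 in adolescents and from -1.35 to -1.13 in adults. The background in those comparisons was 7.71% and 1.49% of all genes. Of the 10 treatment comparisons of 2 groups, 9 had a negative Fabp7 difference. These comparisons share groups and were used to pick the gene, so this count is a description only. The Fabp7 difference was larger with both treatments than with either in each age, and the interaction of antibiotics with morphine was -0.30 (SE 0.220) on the log2 scale in adolescents and -0.54 (SE 0.248) in adults, values that the choice of the gene also used and that were not tested. The adult morphine difference on water, near 0, and those of the other 3 strata gave an age by morphine difference of 0.52 (SE 0.166), likewise a description.

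**Figure D2:**
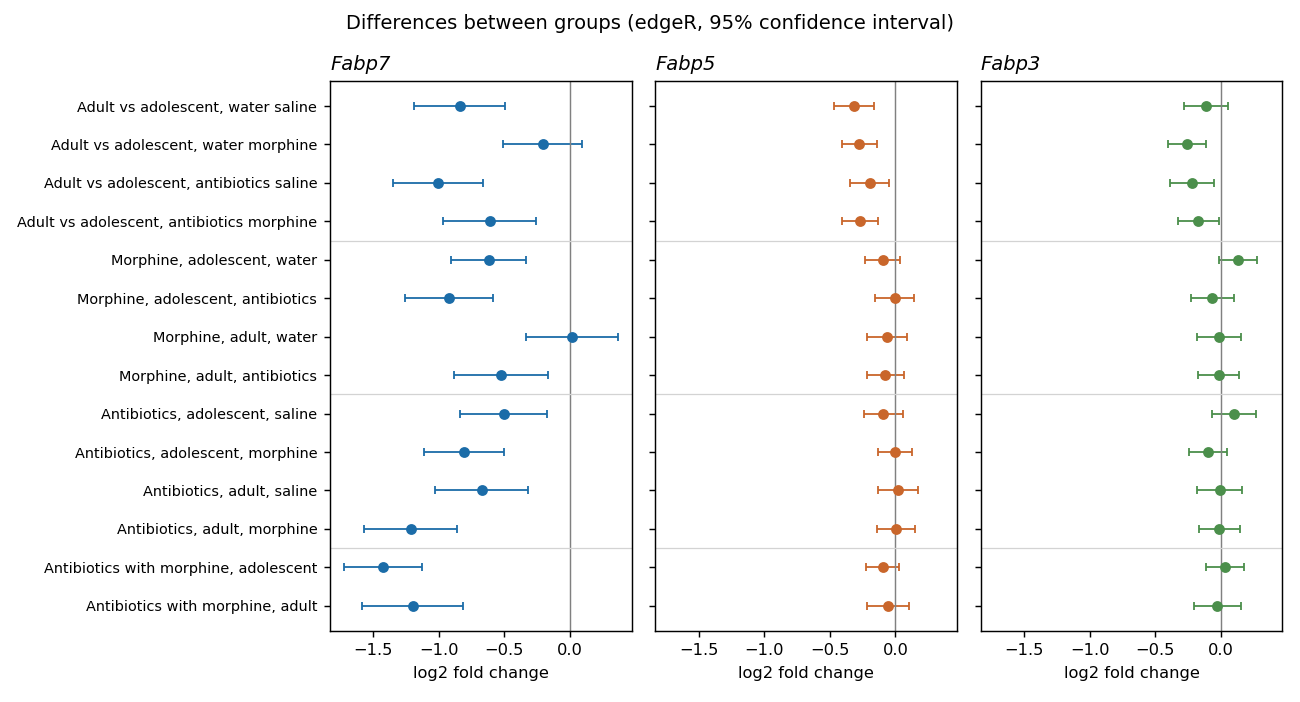
Fitted log2 fold change (x axis) with its 95% confidence interval for 14 comparisons of 2 groups (rows), in 1 panel per gene. Fabp7 lies left of 0 in all but the morphine comparison of adults on water, Fabp5 and Fabp3 lie left of 0 in the 4 age comparisons, and their treatment differences all have intervals that include 0.

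Age was the comparison on which all 3 members could be tested, and all 3 were lower in adults. Averaged over the 4 treatments, Fabp7 fell by 0.67 on the log2 scale (SE 0.0828, adjusted p = 4.7e-07, 0.629 times the adolescent level), Fabp5 fell by 0.26 (SE 0.0355, adjusted p = 1.4e-06, 0.833 times) and Fabp3 fell by 0.19 (SE 0.0395, adjusted p = 0.000663, 0.877 times), by edgeR's quasi-likelihood test over 18 adolescent and 17 adult libraries. In that comparison 20.3% of all genes tested passed, 2169 lower and 1761 higher in adults, so passing it is common among genes. Leaving out any 1 of the 35 libraries kept all 3 calls.

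Age differences of Fabp7 within treatments rest on group means that its choice also used, so these p-values are not free of that choice. Within treatments, the Fabp7 age difference was -0.84 on water with saline (adjusted p = 0.00416) and -1.01 on antibiotics with saline (adjusted p = 0.00110), and the ranges of the ages did not overlap in either (the share of all genes so separated was not counted). It was -0.21 on water with morphine (adjusted p = 0.634, 95% interval -0.51 to 0.095) and -0.61 on antibiotics with morphine (adjusted p = 0.0575, edgeR), where the ranges overlapped. The last of these passed in DESeq2 (adjusted p = 0.0191), in a fit of the compared groups alone (0.0473), and without adolescent antibiotics morphine replicate 1 (0.0446) or adult antibiotics morphine replicate 3 (0.0218). The first missed the threshold in a fit of the compared groups alone (0.0787). Of all genes tested, 3.39% passed for age on water with saline, 0.626% on water with morphine, 1.39% on antibiotics with saline and 1.87% on antibiotics with morphine.

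In adolescents the Fabp5 group means were 69.4 ± 8.54 CPM (SD, n = 5) on water with saline, 65.0 ± 2.66 (n = 5) on water with morphine, 65.2 ± 0.866 (n = 3) on antibiotics with saline and 65.1 ± 4.84 (n = 5) on antibiotics with morphine. In adults they were 56.1 ± 4.43 (n = 3), 53.7 ± 3.21 (n = 5), 56.9 ± 4.60 (n = 5) and 53.9 ± 2.62 CPM (n = 4) in the same order.
The first group held 84.6, 64.3, 65.5, 65.8 and 66.7 CPM, so its mean and SD rest on replicate 1, the library that stands apart. The ranges of adolescents and adults did not overlap within any of the 4 treatments, a separation whose share among all genes was not counted. Over all libraries the adolescents (58.0 to 84.6 CPM) and the adults (50.4 to 62.1 CPM) met.
Its age difference passed on water with saline (-0.31, adjusted p = 0.0152), on water with morphine (-0.28, adjusted p = 0.0321) and on antibiotics with morphine (-0.27, adjusted p = 0.0314), and not on antibiotics with saline in edgeR (-0.20, adjusted p = 0.184), where limma-voom called it (-0.21, adjusted p = 0.0212). These single calls were near the threshold. The first was lost without adult water saline replicate 3 (0.120) or 5 (0.0995) and in a fit of the compared groups alone (0.232), the second without any one of replicates 2, 3, 4 and 5 of either age (0.0648 to 0.0973), and that on antibiotics with morphine without replicate 3, 4 or 5 of the adolescents or 2 or 5 of the adults (0.0696 to 0.118). With a term for islet reads the calls on water and on antibiotics with morphine were also lost (0.0727 and 0.0935).

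Neither treatment moved Fabp5 past the threshold. Averaged over 4 strata, the log2 difference for morphine was -0.060 (95% interval -0.13 to 0.012, adjusted p = 0.545) and for antibiotics -0.016 (-0.088 to 0.055, adjusted p = 0.839, edgeR). In the 10 treatment comparisons of 2 groups it ran from -0.098 to 0.022, with adjusted p from 0.390 to 1.00 and 0 comparisons past 0.05 in edgeR, 0 at an unadjusted p under 0.05, and 0 in DESeq2 or limma-voom. All intervals together lay between -0.24 and 0.17. A difference of the size fitted for Fabp7 in the average over antibiotics (-0.80) lies outside these intervals.

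Fabp3, the most abundant member, had adolescent means of 78.9 ± 11.2 CPM (SD, n = 5) on water with saline, 86.4 ± 6.26 (n = 5) on water with morphine, 84.3 ± 4.04 (n = 3) on antibiotics with saline and 80.7 ± 3.54 (n = 5) on antibiotics with morphine. The adult means were 72.9 ± 6.10 (n = 3), 72.2 ± 4.10 (n = 5), 72.5 ± 4.44 (n = 5) and 71.6 ± 5.97 CPM (n = 4), close to each other.
In adolescents on water with saline the libraries had 59.2, 81.3, 84.0, 86.4 and 83.7 CPM of Fabp3. Replicate 1 was here the lowest of all 35 libraries, where it had been the highest for Fabp5.
Within treatments the Fabp3 age difference did not pass in edgeR (-0.11, -0.26, -0.22 and -0.17, adjusted p = 0.497, 0.0937, 0.186 and 0.262, in the order of the groups above). The second of these passed in DESeq2 (0.0454) and limma-voom (0.00337), and in limma-voom with sample weights, which gives a deviating library less weight, the differences on water with saline (-0.19, 0.0398) and on antibiotics with saline (-0.22, 0.0246) passed as well.

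For Fabp3 the averaged log2 difference was 0.010 for morphine (95% interval -0.070 to 0.090, adjusted p = 0.952) and -0.0052 for antibiotics (-0.085 to 0.075, adjusted p = 0.960). In the 10 treatment comparisons it ran from -0.099 to 0.13, with adjusted p from 0.482 to 1.00, and 0 passed in edgeR, 0 at an unadjusted p under 0.05, and 0 in DESeq2 or limma-voom. Combined treatment of adolescents gave 0.035 for Fabp3 and -0.097 for Fabp5, which became -0.055 and -0.012 without adolescent water saline replicate 1. The differences between strata did not pass for either gene in the 4 interactions (antibiotics by morphine in adolescents and in adults, age by morphine, age by antibiotics), with adjusted p from 0.796 to 1.00. There 0.0621%, 0.00517%, 0.00517% and 0% of all genes passed, and for the last comparison 950 genes had an unadjusted p under 0.05 and DESeq2 and limma-voom called 0.

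The members were also compared in 3 pairs on log2 CPM over the 35 libraries, as a description with no p, since the libraries fall in 2 ages and Fabp7 was chosen on its differences between these groups. Fabp7 and Fabp5 had a Pearson r of 0.50 and a Spearman rho of 0.47. Within ages r was 0.40 over 18 adolescents and -0.10 over 17 adults, and on deviations from the group means it was 0.11. Fabp7 and Fabp3 had r = 0.31 and rho = 0.45, with r = -0.12 within adolescents, 0.14 within adults and -0.0044 on deviations from the group means. With adolescent water saline replicate 1 dropped after the deviations were taken, from means that included it, the last of these was 0.14. Without that library the r over the remaining libraries was 0.52.
Fabp5 and Fabp3 had r = 0.36 and rho = 0.62 over all libraries. Without adolescent water saline replicate 1, which is highest for the one gene and lowest for the other, r was 0.75. On deviations from the group means r was -0.29, and 0.096 with that library dropped after the deviations were taken. The mean of its group still included that library, so 0.096 is not the relation within groups without it. Within ages r was -0.62 for adolescents, that library included, and 0.24 for adults.

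**Figure D3:**
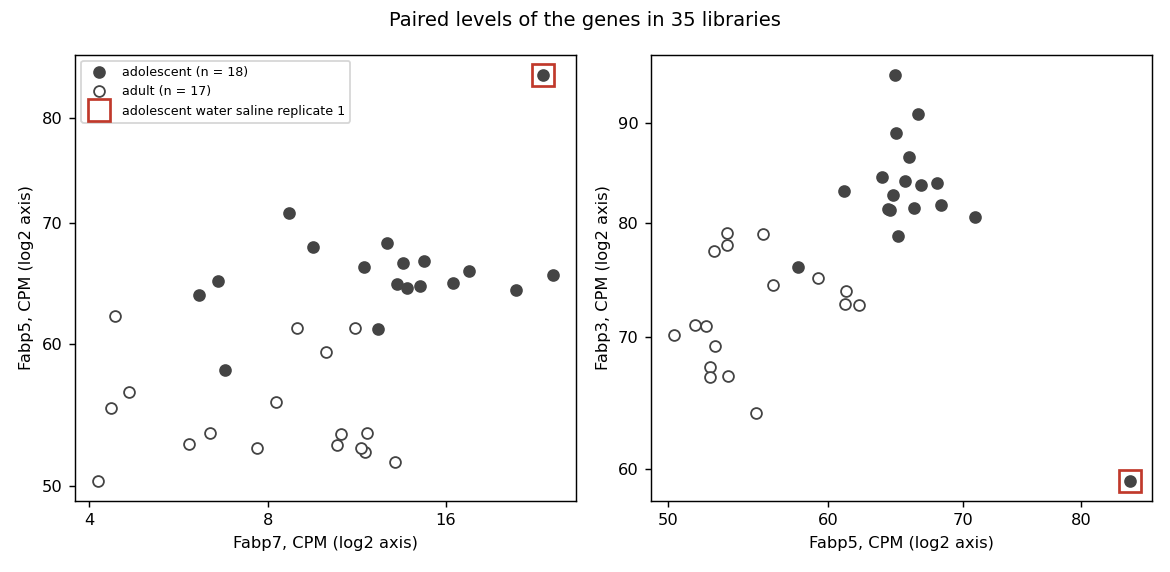
Level of Fabp5 against Fabp7 (left) and of Fabp3 against Fabp5 (right), in CPM on log2 axes, with 1 point per library, adolescents filled and adults open. The squared point is adolescent water saline replicate 1, at 84.6 CPM of Fabp5 and 59.2 CPM of Fabp3, away from the other 34 libraries in the right panel.

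The genes whose log2 CPM followed each member most closely over the 35 libraries were listed, as a description. For Fabp7 they were Tubb2b, a β-tubulin of developing neurons (r = 0.93, and 0.58 on deviations from group means), the membrane protein gene Emp2 (0.90 and 0.76), Sec61a1 of the translocation channel of the endoplasmic reticulum (0.89 and 0.43), the chaperone gene Calr (0.89 and 0.33), and Fcrls and Cx3cr1 of microglia (0.89 and 0.88, with 0.41 and 0.33). For Fabp5 they were the kinase gene Fyn (0.88), Mapre1 (0.88), Golga7 (0.87), Trp53inp2 (0.85), Gpr17 of differentiating oligodendrocyte precursors (0.85) and the phosphatase gene Ppp1ca (0.84). For Fabp3 they were Gng3, a neuronal G protein subunit (0.88), the glycolytic gene Tpi1 (0.87), the synaptic vesicle gene Syp (0.86), Lancl2 (0.85), Vstm2a (0.85) and Tnfaip1 (0.84). All points share the library, its depth and its cell makeup, and Fabp7 and its followers were compared on the libraries that chose it.

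The other fatty acid binding protein genes were hardly present. Pmp2, the myelin form, had 0 counts in all 35 libraries, and Fabp2, Fabp4, Fabp6, Fabp9 and Fabp12 had 7, 33, 5, 1 and 5 counts over all of them. Crabp2 of retinoic acid transport ran from 0.294 to 7.89 CPM and did not pass in the averaged comparisons in edgeR. Fabp1, the liver form, had 0 counts in all 18 adolescent libraries and 58 counts in 12 of the 17 adult libraries. The highest count in 1 library was 12. Fabp1 passed the filter on low counts only through adult libraries, so its age difference is a description with no test. Of near-identical copies that could take reads, Fabp3-ps1 had 0.191 to 1.25 CPM and Fabp5l2 10 counts in all.

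Genes that make, activate and burn fatty acids were described by lists, which were set up with earlier results of these data known. With antibiotics (averaged, 10.2% of all genes passing), 6 of 17 tested genes of fatty acid synthesis and desaturation fell and 1 rose, with a median log2 difference of -0.11 against -0.00079 over all genes. The fallen ones included both front-end desaturases of polyunsaturated fatty acids, Fads1 (-0.15, adjusted p = 3.5e-05) and Fads2 (-0.17, adjusted p = 0.000294), the elongase Elovl5 (-0.26, adjusted p = 0.00139) and Acly, which supplies acetyl-CoA (-0.13, adjusted p = 0.00342). Of 17 genes of fatty acid oxidation 4 fell and 0 rose (median -0.064), namely Hadhb, Hadha, Acadm of β-oxidation and Cpt1a, which brings fatty acids into mitochondria (-0.11 to -0.17). Of 14 genes of uptake and activation only Lpl, lipoprotein lipase, fell (-0.26, adjusted p = 0.0162), or 3 without adolescent water saline replicate 1.
With morphine (averaged, 0.316% of genes passing) 1 gene of these 3 lists passed, again Lpl (-0.34, adjusted p = 0.0284). With age (20.3%), 4 synthesis genes fell and 2 rose in adults, with Fads2 at -0.22 (adjusted p = 2.5e-06) and Srebf1, a master regulator of lipid synthesis, at 0.26 (adjusted p = 0.000585), and 0 of the 17 oxidation genes passed in edgeR (1 at an unadjusted p under 0.05, 0 in DESeq2, 1 in limma-voom). Of the uptake list 3 fell, Mfsd2a, the transporter of docosahexaenoic acid at the blood-brain barrier (-0.25, adjusted p = 3.6e-05), Slc27a4 (-0.16) and Dbi (-0.23), and Slc27a2 rose (0.40).

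Of 15 genes of ligand-activated receptors and their partners, 4 rose and 2 fell in adults in edgeR (20.3% of all genes passing), or 7 and 2 without adolescent water saline replicate 1, and DESeq2 called 10 and limma-voom 9 in all. The coregulators Ncor1 (0.14), Ncoa1 (0.13) and Ncoa2 (0.11) rose, and Rxrb (-0.14) and Ppard (-0.14, adjusted p = 0.0196) fell. Of the PPARs themselves, which bind fatty acids, Ppara was at 2.65 CPM with antibiotics and 2.59 CPM with water (log2 difference 0.027, adjusted p = 0.913), Pparg at 4.39 and 4.32 CPM (0.031, adjusted p = 0.905) and Ppard at 23.1 and 24.1 CPM (-0.061, adjusted p = 0.442). Their partner Rxra rose with antibiotics (0.19, adjusted p = 0.000167), as the 1 gene of 15 in the receptor list that passed, against 10.2% of all genes. Of 14 PPAR target genes tested, Plin4 of lipid droplets rose with antibiotics (1.59, 10.3 against 2.92 CPM, adjusted p = 2.1e-07), and Plin2 (-0.38, adjusted p = 0.00176) and Cpt1a fell. Plin4 also rose with morphine (0.88, adjusted p = 0.0173) and in adults (1.52, adjusted p = 1.8e-07).
In the endocannabinoid list, whose anandamide is carried by FABP5 to its hydrolase, Faah did not pass for antibiotics (-0.024, adjusted p = 0.802), morphine (-0.0067, adjusted p = 0.973) or age (-0.0070, adjusted p = 0.932). With antibiotics 1 of 11 rose, Abhd12 (0.091), and 1 fell, Abhd6 (-0.13), with 10.2% of all genes passing. Among 16 genes of fatty acid release and eicosanoids, antibiotics lowered Ephx2, which breaks down fatty acid epoxides (-0.27, adjusted p = 3.2e-05), and Plcb1. They raised 3, namely Alox12b (0.63), Pla2g4e (0.30) and the triglyceride lipase Pnpla2 (0.24). The rule for named genes gives Plcb1 for combined treatment of adults (-0.30, adjusted p = 0.0429, edgeR). For averaged antibiotics it was picked after its values were seen. Without adolescent water saline replicate 1, antibiotics raised 2 synthesis genes and 2 PPAR targets and lowered 2 endocannabinoid genes and 1 clock gene.

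Of 17 listed regulators of Fabp7, 0 passed for antibiotics in edgeR, against 10.2% of all genes, with a median log2 difference of -0.0053 (1 at an unadjusted p under 0.05, 0 in DESeq2, 1 in limma-voom). For morphine 1 passed, Nr1d1, whose product represses Fabp7, and it fell (-0.13, adjusted p = 0.0376, 283 against 309 CPM), or 2 passed without adolescent water saline replicate 1, against 0.316% of all genes. In adults (20.3% of all genes passing) 3 fell, Nr1d1 (-0.14), Hey1 (-0.15) and Hes5 of Notch signalling (-0.29, adjusted p = 0.00135), and 2 rose, Nr1d2 (0.15) and Rbpj, the latter named after its values were seen. In the clock list 4 of 19 genes rose with morphine and 1 fell (0.316% of all genes passing), with Cry1 at 0.45 (adjusted p = 4.5e-07), Per2 at 0.28 and Tef at 0.12. With antibiotics 1 rose, Cry1 (0.19, adjusted p = 0.00894, 10.2% of all genes passing), and in adults 9 rose and 3 fell (20.3%). Fabp7 RNA is known to cycle over the day, and the labels used here give no time of collection.

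**Figure D4:**
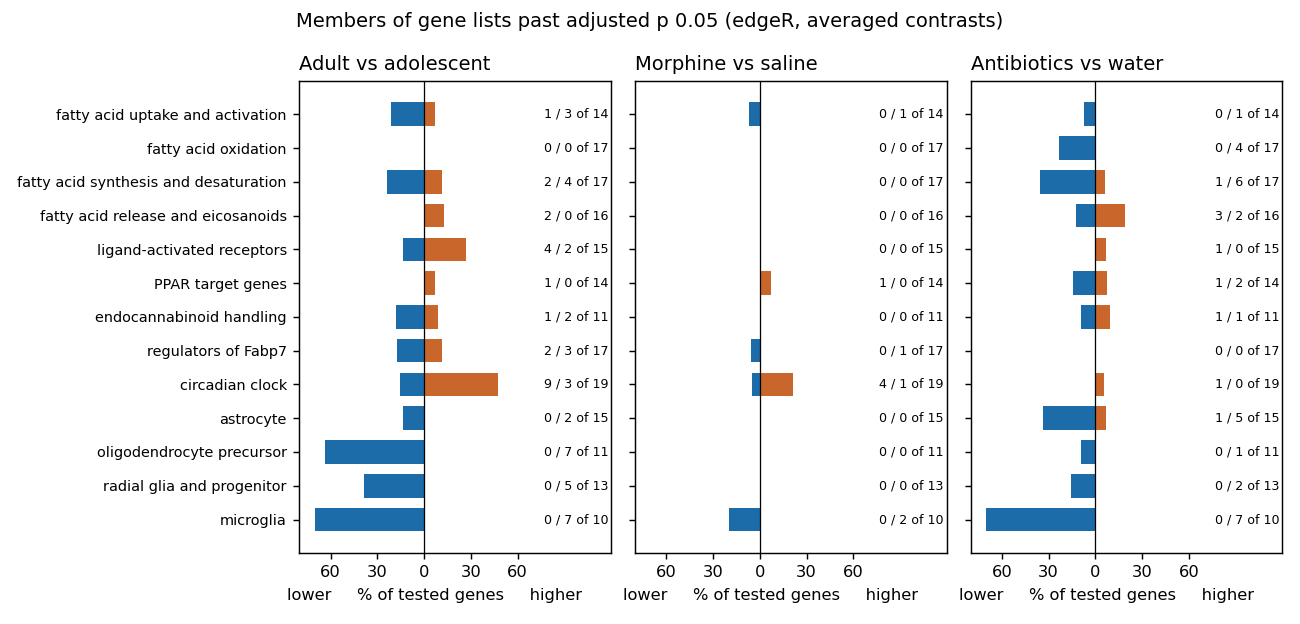
Share of tested genes in 13 lists (rows) that passed an adjusted p of 0.05 in edgeR as lower (blue, left) or higher (orange, right), in % of the genes tested, for the 3 averaged comparisons (panels), with the counts higher / lower of tested at the right. With antibiotics 7 of 10 microglia genes are lower, 6 of 15 astrocyte genes pass, 5 of them lower, and 0 of 17 Fabp7 regulators pass. Of all genes tested, 10.2% pass in that comparison.

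Markers of the cells known to express Fabp7 were set beside it. With antibiotics (10.2% of all genes passing) 5 of 15 astrocyte markers fell and 1 rose, Gjb6, named here after its values were seen (median -0.087), with the water channel gene Aqp4 at -0.46 (adjusted p = 3.0e-05), Slc4a4 at -0.21 and the glutamate transporter genes Slc1a3 at -0.14 and Slc1a2 at -0.12, while Aldh1l1 did not pass (-0.084, adjusted p = 0.196). Their summed level had medians of 6298 CPM (range 5820 to 6773) in adolescents on water with saline and 5677 (5567 to 5748) with both treatments, and 5913 (5845 to 6793) and 5654 (5537 to 6084) in adults. These ranges overlapped in adults and did not in adolescents, a separation whose share among genes or lists was not counted. None of the 15 was at 0 in any group, and their part in the Fabp7 differences was not tested.
With antibiotics 1 of 11 oligodendrocyte precursor markers fell, near the share of all genes, C1ql1 (-0.19, adjusted p = 0.0451, or 0.0526 without adolescent water saline replicate 1), and Pdgfra did not pass (-0.034, adjusted p = 0.663). Of 13 radial glia and progenitor markers Hopx (-0.26) and Ccnd2 (-0.22) fell. With morphine (0.316% of all genes passing) 0 astrocyte, 0 precursor and 0 progenitor markers passed in edgeR (5, 2 and 1 at an unadjusted p under 0.05, 0 in DESeq2 and limma-voom), with medians of -0.078, -0.098 and -0.084.
In adults (20.3% of all genes passing) 7 of 11 precursor markers fell, Gpr17 (-0.63, adjusted p = 5.9e-06) and Pdgfra (-0.15, adjusted p = 0.00694) among them, 5 of 13 progenitor markers, Sox4 (-0.40) and Hes5 among them, and 2 of 15 astrocyte markers, Ntsr2 and Gja1 (-0.16 each), a share below that of all genes.

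Markers of microglia, which are not known as Fabp7-expressing cells, also fell. With antibiotics 7 of 10 fell (Cx3cr1 at -0.24, adjusted p = 5.9e-06, and Tmem119 at -0.22, adjusted p = 0.000205, 10.2% of all genes passing), with morphine 2 of 10 (Cx3cr1 at -0.17 and Tmem119 at -0.16, 0.316% of all genes passing), or 4 without adolescent water saline replicate 1, and in adults 7 of 10 (20.3%), with 0 higher in each. Their summed level was 431 to 489 CPM in adolescents on water with saline and 347 to 383 CPM with antibiotics and morphine. In adults it was 370 to 400 and 305 to 360 CPM in the same order, so these groups did not overlap in either age. The share of genes or lists so separated was not counted. None of the 10 was at 0 in any group, and their part in the Fabp7 differences was not tested. With a term for islet reads, the averaged Fabp7 differences were -0.80 for antibiotics and -0.52 for morphine, and for age Fabp7 fell by 0.66, Fabp5 by 0.25 and Fabp3 by 0.15 (adjusted p = 1.0e-05, 4.5e-05 and 0.0140, edgeR).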

How the data were processed

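RNA of 37 libraries was counted per gene by the authors, and the deposited table holds whole-number counts for 56980 Ensembl genes. Per the submitters' processing notes, STAR 2.7.10a, DESeq2 and mm10 were named, with no roles, while the annotation release and strand setting are unknown here. Symbols were matched for 52073 identifiers, and the 4907 unmatched held 3.86% of counts. Libraries under 1000000 counts were left out (2). The 35 others were scaled by TMM, filtered with filterByExpr (19332 genes) and fitted with edgeR 4.0.16 (limma 3.58.1, R 4.3.3) by the robust quasi-likelihood test, with 1 mean per group, no covariate and Benjamini-Hochberg adjustment, threshold 0.05. The averaged comparisons weight 4 strata equally. DESeq2 1.42.0, limma-voom with sample weights, other scaling, no filter, all 37 libraries, the compared groups alone, a replicate block, an islet term (over 20 counts) and leaving out each library were alternatives. Relations were computed on log2 CPM (prior count 2). Their permutation p is not printed, for the reason given with them.

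The members and gene lists were chosen with earlier results of these data known. Named genes were the members, 8 further genes and Pmp2, and from each of 24 lists up to 4 genes past the threshold by smallest p in the averaged and combined comparisons. The likeness lists hold 6 genes per member by Pearson r, with a mean of at least 1 CPM.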

Additional observations from a re-analysis of the deposited data

Results flagged for a closer look

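Of 18 sets of 4 or 5 libraries of 1 group, over the 3 genes, 3 held a library far from the rest of its group, where chance alone gives about 1 in 20. Fabp5 stood at 84.6 CPM in adolescent water saline replicate 1, with the nearest other library of that group at 66.7 CPM. Fabp3 stood at 59.2 CPM in the same library, with the nearest at 81.3 CPM. That library also held the highest mature oligodendrocyte and striatal marker sums of all 35 libraries. Fabp5 stood at 59.4 CPM in adult water morphine replicate 1, with the nearest at 52.7 CPM.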

How the results depend on the processing

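The averaged age differences of Fabp7, Fabp5 and Fabp3 kept direction and call in all alternatives, leaving out each of the 35 libraries included. Signs changed for Fabp5 and Fabp3 treatment differences and interactions near 0, none past 0.05 in either fit, and for Fabp7 in the morphine difference of adults on water (-0.040 to 0.058, leaving out 1 library). The cause was not tested. For Fabp3 these were -0.050 with limma-voom and -0.00096 with the islet term for combined treatment in adolescents, -0.0041 and -0.00029 for averaged morphine, 0.025 and 0.0053 for age by antibiotics, in the same order. Fabp5 had 0.0040 with limma-voom for averaged antibiotics. For Fabp5, morphine in adolescents on antibiotics gave 0.0026 with all 37 libraries, antibiotics in adolescents with morphine gave -0.0080 with the islet term and -0.0013 in the compared groups alone, and antibiotics in adults with morphine gave -2.5e-05 with all 37 libraries and -0.0067 without the filter.

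With a replicate block, Fabp3 had 0.00079 for averaged antibiotics and 0.0085 for antibiotics by morphine in adults, Fabp5 had 0.0079 for morphine in adolescents on antibiotics and -0.00067 for antibiotics in adolescents with morphine, and the age differences were -0.69 (Fabp7), -0.27 (Fabp5) and -0.19 (Fabp3), so no call changed in the averaged comparisons. Whether the numbers pair the libraries is not known, and correlations cannot settle it. Over 108 same-numbered pairs, deviations from group means correlated from -0.23 to 0.28, with a median of 0.0055 and 14 of them over 0.1. Pairs with other numbers had a median of 0.00078.

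Leaving out 1 library, Fabp3 ranged from -0.055 to 0.071 for combined treatment in adolescents, -0.082 to 0.038 in adults, -0.013 to 0.026 for averaged morphine, -0.029 to 0.011 for averaged antibiotics, -0.071 to 0.049 for morphine in adults on water, -0.058 to 0.033 on antibiotics, -0.067 to 0.054 for antibiotics in adults with saline, -0.053 to 0.038 with morphine, -0.065 to 0.055 for antibiotics by morphine in adults and -0.041 to 0.033 for age by antibiotics. Fabp5 ranged from -0.089 to 0.010 for combined treatment in adults, -0.025 to 0.0034 for averaged antibiotics, -0.036 to 0.036 for morphine in adolescents on antibiotics, -0.10 to 0.0052 in adults on water, -0.032 to 0.041 for antibiotics in adolescents with morphine, -0.012 to 0.088 in adults with saline, -0.018 to 0.045 with morphine, -0.083 to 0.023 for antibiotics by morphine in adults and -0.062 to 0.015 for age by morphine. Without adolescent water saline replicate 1, Pearson r was 0.52 for Fabp7 with Fabp3 and 0.75 for Fabp5 with Fabp3.

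Of all genes, 61 passed for averaged morphine, 22 with all 37 libraries, 163 in DESeq2, 358 in limma-voom, 31 with the islet term and 247 without that library. For averaged antibiotics 1975 passed, 3199 in limma-voom and 1313 without the filter. For combined treatment 1490 passed in adolescents, 960 without the filter, 990 with the islet term and 436 in the compared groups alone, and 289 in adults, 490 in DESeq2, 829 in limma-voom, 176 without the filter and 655 without that library. Fabp7 rests on 59 to 678 counts per library, and its SD within groups was 0.26 on the log2 scale, against 0.10 for Fabp5 and 0.12 for Fabp3.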
